A study of Mus musculus with 4 samples.

Results

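Transcripts of the translation initiation factors, the eIF4E-binding proteins (4E-BPs) and the S6 kinases were examined in alveolar type II cells of mice with an mTOR transgene and of wild-type mice. The group comprised every gene symbol beginning with Eif1 to Eif6, pseudogenes left out, together with Rps6kb1 and Rps6kb2. Of 57 such symbols, 55 had a summed count of at least 40 over the 4 libraries and were kept, out of 25759 symbols in all, and each of the 55 passed the filter on low counts. The lowest member, Eif5a2, had 486 counts in all. The 2 symbols left out were Eif4ebp3, with 17 counts, and Eif4e1b, with none.

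The tested mice carried an Sftpc-mTOR transgene (mTOR Tg), described as conditional and active, in which Sftpc names the surfactant protein C gene of type II cells. The controls were wild type (WT). Both were C57BL/6 mice 14 weeks old, with 2 libraries of type II cells each, and no agent is named for either. How the transgene was induced, how the cells were isolated and whether a sample came from a single mouse or a pool were not stated. The spread behind each p-value is therefore that between samples and may be technical.

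Initiation brings the small ribosomal subunit, the initiator tRNA and an mRNA together at a start codon. The cap of the mRNA is bound by eIF4E within the complex eIF4F, and eIF3 joins that complex to the ribosome. mTOR complex 1 acts on this step by phosphorylation. It phosphorylates the 4E-BPs, which then release eIF4E, and it activates the S6 kinases, which phosphorylate ribosomal protein S6 and eIF4B. Kinases of eIF2 lower initiation when the cell meets amino acid shortage, viral RNA, unfolded protein or lack of heme. These controls act on proteins, and the data here are amounts of RNA.

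Many mRNAs whose translation depends on mTOR complex 1 begin with a cytosine followed by a run of pyrimidines, the terminal oligopyrimidine tract. RefSeq start windows (GRCm38.p6) were matched by symbol for 44 of the 55 members. The members without a match were Eif1a, Eif2b3, Eif3e, Eif3h, Eif3i, Eif3j2, Eif4e3, Eif4ebp1, Eif4g2, Eif6 and Rps6kb2. A C followed by at least 4 C or T at the annotated start was found in 2 of 57 member windows (3.51%) and in 823 of 32851 windows of all genes (2.51%). The 2 were those of Eif3f, a subunit of eIF3, and Eif2s3x, the X-linked gamma subunit of eIF2. The first 25 bases are shown for both. Those of Eif2s3y, the Y-linked copy of Eif2s3x, are added because this pair of homologues differs at the RefSeq start. Such a run depends on the exact first base. In the GENCODE M21 annotation the Eif2s3x gene reaches 94212862 and the Eif2s3y gene begins at 1010543, both upstream of the RefSeq starts. Capitals mark the pyrimidine run from the first base, 11 bases long in both of the first sequences.
Eif3f, chr7:108934415-108934439, plus strand: CTCTCTTTCTCggcaagatggcttc
Eif2s3x, chrX:94212627-94212651, minus strand: CTTTTCTCTCCgagcaagatggctg
Eif2s3y, chrY:1010595-1010619, plus strand: acttccttctttcgtgagcaagatg

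The libraries held 21972124 and 20273396 counts in mTOR Tg and 18146693 and 19018785 in WT. The members together took 0.596% ± 0.0146 of counts in mTOR Tg and 0.594% ± 0.0155 in WT (SD, n = 2 each). Replicate 1 of mTOR Tg stood apart, correlating with the other libraries at a Pearson's r of 0.951 to 0.954 across genes, where the others correlated with each other at 0.983 to 0.988. Its short transcripts were high and its long ones low against WT. The 10 type II markers, all counted, summed to 101564 and 127938 CPM (counts scaled to a common library total) in mTOR Tg replicates 1 and 2 and to 123935 and 106169 CPM in WT replicates 1 and 2. Most of that sum was Sftpc, and most other type II markers were lowest in mTOR Tg replicate 1, Napsa by little. Sftpd was an exception, at 2669 and 3152 CPM in mTOR Tg and 2544 and 2267 CPM in WT. The phosphate transporter gene Slc34a2 was at 3877 and 9604 CPM in mTOR Tg and 7759 and 7725 CPM in WT, and Lamp3, of the lamellar body, was at 921 and 2011 CPM in mTOR Tg and 1946 and 1774 CPM in WT. The 10 club cell markers, also all counted, summed to 176072 and 63547 CPM in mTOR Tg and 92588 and 99702 CPM in WT. Most of that sum was Scgb1a1, at 138531 CPM in mTOR Tg replicate 1. All club markers but Cckar and Gabrp were highest in that library. The 10 ciliated cell markers summed to 2955 and 1362 CPM in mTOR Tg and 1279 and 1510 CPM in WT. All of them but Dnah5, which was lowest there, were highest in mTOR Tg replicate 1.

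Among the cell type lists, the sums of 3 did not overlap between genotypes. Of all genes tested, 17.6% were higher in mTOR Tg without overlap and 17.0% lower. Sums of the 8 endothelial markers were 71.5 and 63.2 CPM in mTOR Tg and 116 and 126 CPM in WT. Those of the 8 type I markers were 1986 and 1722 CPM in mTOR Tg and 1609 and 1550 CPM in WT. Those of the 5 mesothelial markers were 27.5 and 20.5 CPM in mTOR Tg and 9.48 and 18.03 CPM in WT. Within these lists some single genes overlapped, such as Emcn, Hopx and Msln. The 9 leukocyte markers summed to 15196 and 24458 CPM in mTOR Tg and 20287 and 16633 CPM in WT, nearly all from Lyz2, which mouse type II cells also express. Among them Cd68 had 50 to 85 counts in each library, Cd3e and C1qb had none, and Ptprc had at most 3. The 9 fibroblast and pericyte markers summed to 32.8 and 62.7 CPM in mTOR Tg and 47.1 and 32.4 CPM in WT, and the 5 red cell markers to 3235 and 1041 CPM in mTOR Tg and 2548 and 3683 CPM in WT. The part of other cell types in the differences below was not tested. In bulk RNA, fewer cells of a type and less RNA per cell cannot be told apart.

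None of the 55 members passed the threshold between genotypes. edgeR's quasi-likelihood test, with adjustment over all 13306 genes tested, called 0 members and 0 genes of the whole table, that is 0% of genes. At an unadjusted p under 0.05 it found 1 member higher in mTOR Tg, where 1.54% of all genes were, and 0 members lower, where 0.917% of all genes were (2.46% in both directions). DESeq2 also called 0 members, with 0.0676% of all genes called higher and 0.0225% lower, and limma-voom called 0 members and 0 genes. The smallest adjusted p among the members was 0.860. The log2 fold changes of mTOR Tg over WT ran from -0.57 to 0.65 with a median of 0.05, and were positive for 30 members and negative for 25. Over all genes tested the median was 0.01. The mTOR Tg pair exceeded the WT pair without overlap in 7 members (12.7%), as in 17.6% of all genes, and was below it without overlap in 10 members (18.2%), as in 17.0% of all genes. These shares are near those of the whole table.

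The calls turned on 1 library. Without mTOR Tg replicate 2, so that replicate 1 alone stood for the genotype, 20 members were called higher and 13 lower, where 22.6% of all genes were called higher and 24.6% lower. Without mTOR Tg replicate 1, 0 members were called, where 1.40% of all genes were called higher and 1.10% lower. Leaving out WT replicate 1 gave 0 members called, where 0.0601% of all genes were higher and 0% lower. Leaving out WT replicate 2 also gave 0, where 0.0676% were higher and 0.0225% lower. A fit with the replicate number as a block called 0 members, where 0.165% of all genes were higher and 0.113% lower.

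The 4E-BPs hold back cap-dependent initiation by occupying eIF4E. Eif4ebp1, which encodes 4E-BP1, was the member higher at an unadjusted p under 0.05. It stood at 20.9 and 17.1 CPM after TMM scaling (normalised CPM) in mTOR Tg, against 12.02 and 12.3 CPM in WT, from 427 and 358 counts in mTOR Tg and 219 and 243 counts in WT. Both mTOR Tg libraries were above both WT libraries, as in 17.6% of all genes tested, and the WT pair differed by 0.03 on the log2 scale. The fold change was 1.57, a log2 of 0.65 (SE 0.22, unadjusted p = 0.0291, edgeR adjusted p = 0.860). The log2 fold change was 0.50 without mTOR Tg replicate 1 (adjusted p = 0.185) and 0.79 without mTOR Tg replicate 2 (adjusted p = 0.000794). Such a fit takes the lone library to vary as the complete pair does. With an offset for transcript length the log2 fold change was 0.53. Eif4ebp1 lies on chromosome 8 from 27260329 to 27276674 (plus strand, GRCm38).

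Eif4ebp2, the more abundant relative, was at 126 and 137 normalised CPM in mTOR Tg and 114 and 129 CPM in WT, and the groups overlapped (log2 fold change 0.12, SE 0.19). Per kilobase of transcript, which allows levels of different genes to be compared, Eif4ebp2 averaged 36.5 CPM in mTOR Tg and 33.7 CPM in WT. On the same scale Eif4ebp1 averaged 9.54 CPM in mTOR Tg and 6.09 CPM in WT. Eif4ebp1 transcripts were the less abundant of the pair in every library. Eif4enif1, which encodes the eIF4E transporter 4E-T, was at 33.0 and 41.5 CPM in mTOR Tg and 38.0 and 39.5 CPM in WT, and its replicates in mTOR Tg lay on either side of WT.

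Eif4ebp3, the remaining 4E-BP gene, fell below the count minimum and was not tested in the filtered fit. It had 8 and 9 counts in mTOR Tg and 0 and 0 counts in WT. Its mean level in mTOR Tg was 2.50 times a floor of 3 counts in each WT library. That figure leaves out the counting error of the 8 and 9 counts, so it is not a minimum. Floors cover counting error only. In GENCODE M21 its exons share 501 bases with a readthrough gene on the same strand, AC115631.1, so the reads may be split between them. Eif4e1b, an eIF4E relative of the germ line, had no count in any library, against floors of 3 counts or 0.137 to 0.165 CPM.

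The target of the 4E-BPs differed between genotypes by less than its standard error. Eif4e was at 41.2 and 42.3 normalised CPM in mTOR Tg and 44.4 and 48.1 CPM in WT (log2 fold change -0.15, SE 0.19, edgeR adjusted p = 0.860). Both mTOR Tg libraries were below both WT libraries, as in 17.0% of all genes. The ratio of Eif4ebp1 plus Eif4ebp2 to Eif4e, each per kilobase, was 3.23 and 3.22 in mTOR Tg and 2.47 and 2.55 in WT. The means of the ratio were 3.22 ± 0.00681 in mTOR Tg and 2.51 ± 0.0571 in WT (SD, n = 2 each). The ratio was thus higher in both mTOR Tg libraries, while 17.6% of single genes tested were higher without overlap. Its parts differed between the mTOR Tg replicates, so the closeness of 3.23 and 3.22 does not carry over to each gene. Per kilobase, Eif4ebp1 was at 10.5 and 8.58 CPM in mTOR Tg and 6.02 and 6.15 CPM in WT. Eif4ebp2 was at 35.0 and 38.0 CPM in mTOR Tg and 31.5 and 35.8 CPM in WT, with overlap. An exact two-sided permutation test over the 4 libraries gave p = 0.33, the smallest value that 2 samples against 2 allow. Leaving out any single library kept the difference in this ratio between 0.67 and 0.75.

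**Figure D1:**
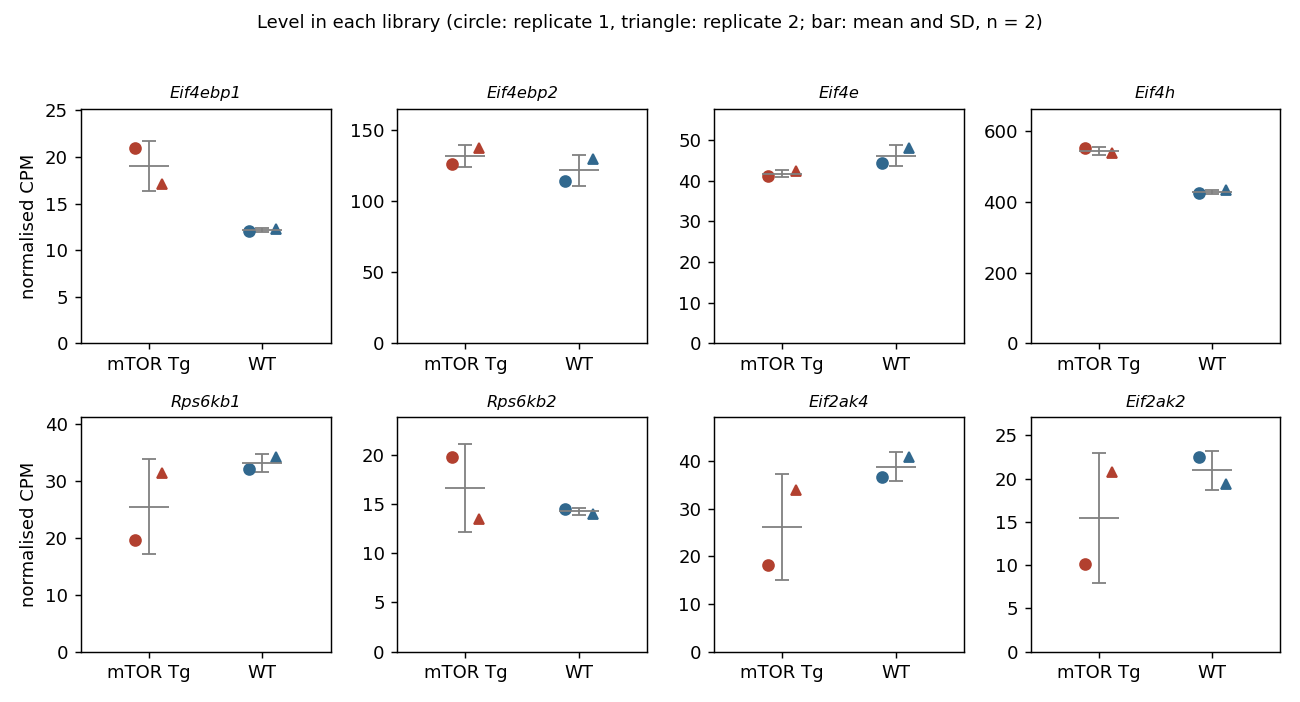
Normalised CPM (y axis, from 0) of 8 members in mTOR Tg and WT libraries, with circles for replicate 1, triangles for replicate 2, and the mean and SD of each pair in grey. Eif4ebp1 and Eif4h lie higher in both mTOR Tg libraries, while the other panels overlap or have mTOR Tg replicate 2 close to WT.

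**Figure D2:**
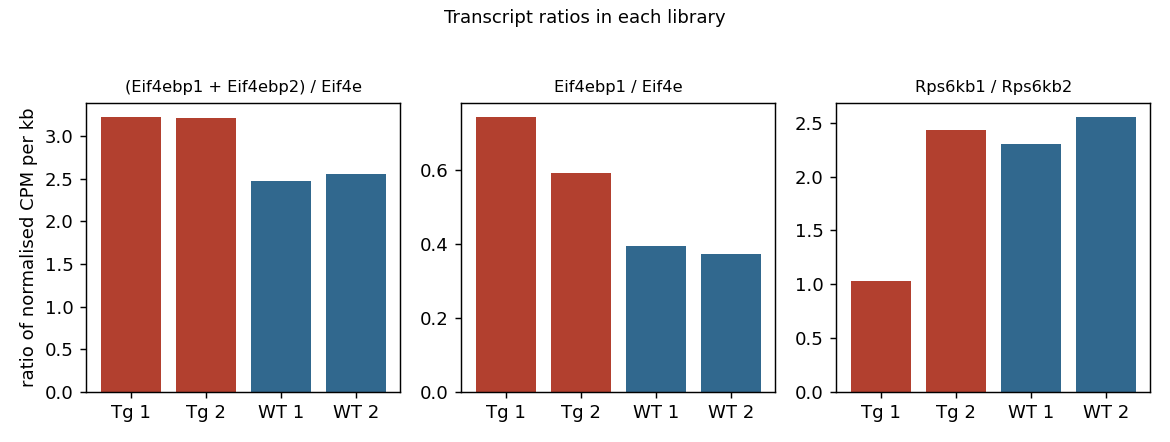
Ratios of transcript levels per kilobase (y axis, from 0) in each library, with mTOR Tg in red and WT in blue. The ratio of both 4E-BP genes to Eif4e is 3.23 and 3.22 in mTOR Tg and 2.47 and 2.55 in WT, and the ratio of Rps6kb1 to Rps6kb2 is low in mTOR Tg replicate 1 alone.

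The S6 kinase genes had log2 fold changes of opposite sign. Rps6kb1, which encodes S6K1, was at 19.6 and 31.3 normalised CPM in mTOR Tg and 32.0 and 34.3 CPM in WT (log2 fold change -0.38, SE 0.28, edgeR adjusted p = 0.860). Replicate 1 was low and replicate 2 lay just under the WT pair. Rps6kb2, encoding S6K2, was at 19.8 and 13.5 CPM in mTOR Tg and 14.5 and 14.0 CPM in WT, so that its mTOR Tg replicates lay on both sides of WT (log2 fold change 0.22, SE 0.26). The log2 fold changes without mTOR Tg replicate 1 were -0.08 for both genes. Without mTOR Tg replicate 2 they were -0.76 for Rps6kb1 (adjusted p = 0.000312) and 0.48 for Rps6kb2 (adjusted p = 0.0237). Exons of Rps6kb2 share 1224 bases with Ptprcap on the opposite strand, and the strand setting of the counting is unknown.

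Among the 11 genes of eIF4F and its cofactors, Eif4h had the widest gap between groups relative to its spread. Its product stimulates the helicase eIF4A. Eif4h was at 552 and 537 normalised CPM in mTOR Tg and 424 and 433 CPM in WT, with no overlap. The mean was 544 ± 10.7 CPM in mTOR Tg and 429 ± 5.81 CPM in WT (SD, n = 2 each). The log2 fold change was 0.35 (SE 0.19, unadjusted p = 0.130, edgeR adjusted p = 0.860). It was 0.33 without mTOR Tg replicate 1, 0.37 without mTOR Tg replicate 2 and 0.31 with the length offset. Eif4h and Eif4ebp1 had the highest values of all members in mTOR Tg replicate 2 against the WT mean, at 0.33 and 0.49 on the log2 scale.

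The RefSeq window before the start of Eif4h is given because this member was higher in both mTOR Tg libraries by a similar amount. It holds an E-box, the letters CACGTG, which read the same on both strands and are bound by MYC and TFEB family factors. Its first base lies 96 bases before the RefSeq start, while in GENCODE M21 the gene reaches further upstream, to 134639490. Motifs were counted over whole windows, which also include bases after the start. E-boxes were found in 12 of 57 member windows (21.1%), which belonged to 10 members, and in 2349 of 32851 windows of all genes (7.15%). The windows of all genes were not limited to genes tested here. Besides Eif4h, Eif1b, Eif3f, Eif3k, Eif4a1 and Eif5a had positive log2 fold changes, and Eif3a, Eif4e, Eif4g1 and Eif5a2 negative ones. Among these members only Eif4h was higher in mTOR Tg without overlap. A link between E-boxes and levels was not tested. The core of the ATF4 composite element, TGATGNAA, was found on either strand in 1 member window (1.75%) and in 3.97% of all windows. The antioxidant element core, TGACNNNGC, was found on either strand in 9 member windows (15.8%) and in 12.4% of all windows. The 250 bases before the start are shown with the E-box in capitals.
Eif4h, chr5:134639410-134639659, minus strand: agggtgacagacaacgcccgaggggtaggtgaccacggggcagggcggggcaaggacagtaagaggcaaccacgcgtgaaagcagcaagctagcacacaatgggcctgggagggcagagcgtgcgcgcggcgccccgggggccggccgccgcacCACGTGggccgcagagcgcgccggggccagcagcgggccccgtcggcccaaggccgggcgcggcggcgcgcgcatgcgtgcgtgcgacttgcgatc

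The helicase genes of eIF4A overlapped between genotypes. Eif4a1 was at 287 and 209 normalised CPM in mTOR Tg and 215 and 241 CPM in WT. Eif4a2 was at 297 and 396 CPM in mTOR Tg and 370 and 361 CPM in WT. In replicate 1 of mTOR Tg, Eif4a1 was thus high and Eif4a2 low, and in replicate 2 the order was reversed. Eif4a3, whose product belongs to the exon junction complex, was at 81.4 and 61.6 CPM in mTOR Tg and 63.0 and 61.2 CPM in WT. Reads of Eif4a1 and Eif4a2, which are alike in sequence, and of the small RNAs inside Eif4a1 and Eif4a2, can be shared.

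The scaffold genes were likewise within the spread. Eif4g1 was at 320 and 370 normalised CPM in mTOR Tg and 354 and 381 CPM in WT. Eif4g3 was at 118 and 138 CPM in mTOR Tg and 136 and 136 CPM in WT. Eif4g2, whose product lacks the eIF4E-binding site, was at 316 and 421 CPM in mTOR Tg and 404 and 454 CPM in WT. All 3 had negative log2 fold changes, from -0.22 to -0.09, which were positive with the length offset, from 0.13 to 0.20.

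Eif4b, which encodes the cofactor that S6 kinase phosphorylates, was at 211 and 225 normalised CPM in mTOR Tg and 256 and 215 CPM in WT, and the groups overlapped. Of the eIF4E relatives, Eif4e2, whose product represses translation as 4EHP, was at 48.9 and 37.6 CPM in mTOR Tg and 38.8 and 38.2 CPM in WT. Eif4e3 was at 21.9 and 35.0 CPM in mTOR Tg and 37.9 and 35.9 CPM in WT (log2 fold change -0.38, SE 0.28), with both mTOR Tg libraries below WT and replicate 1 far lower. Of the 11 genes of this role, 4 had positive and 7 negative log2 fold changes, with a median of -0.09.

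**Figure D3:**
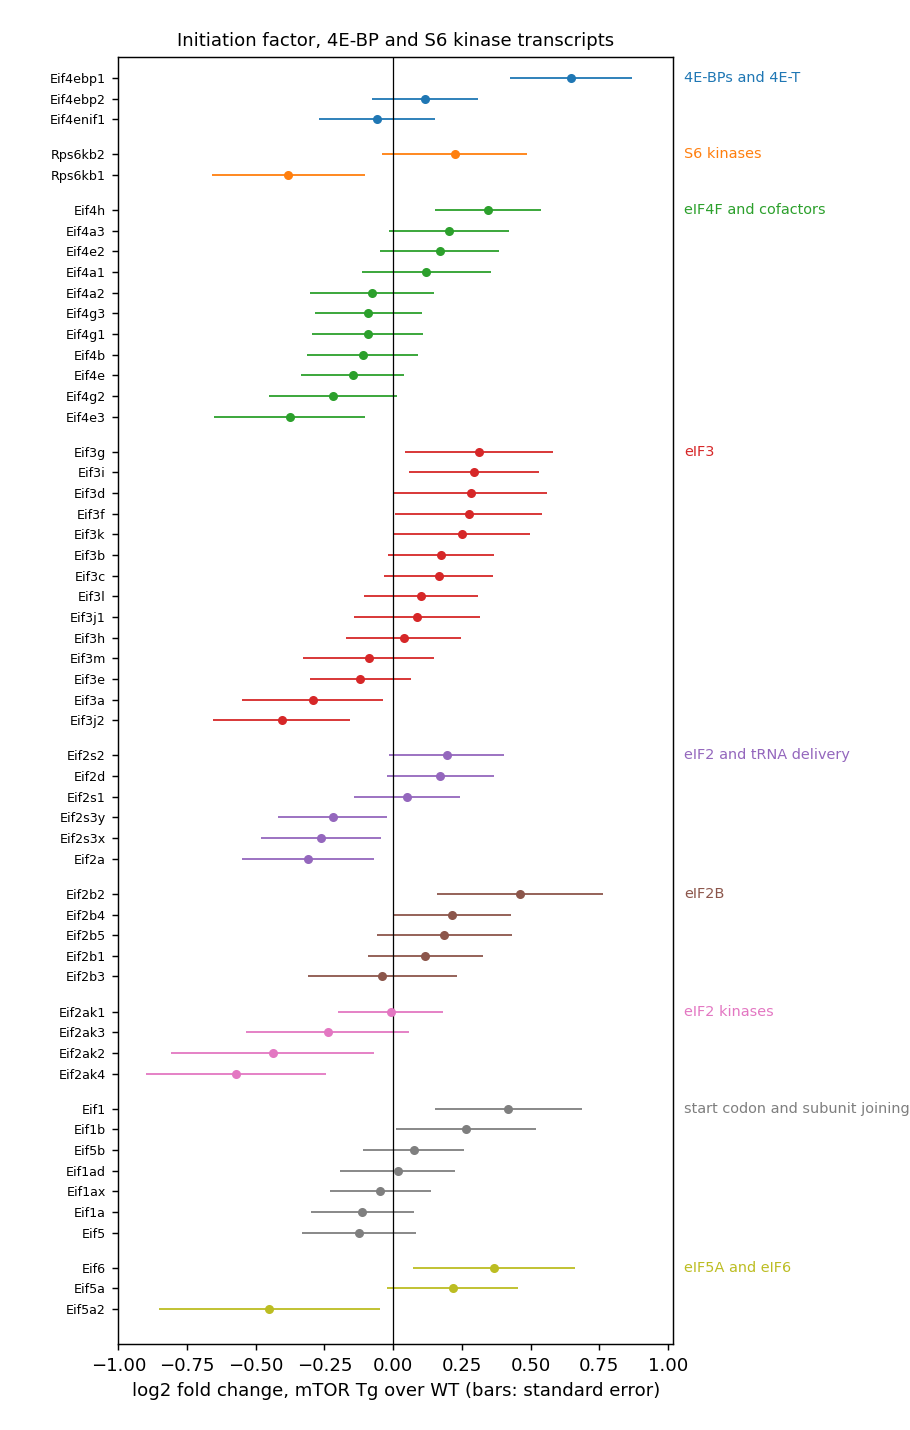
Log2 fold change of mTOR Tg over WT (x axis) for the 55 members, grouped and coloured by role, with bars of 1 standard error. Eif4ebp1 has the highest value at 0.65 and Eif2ak4 the lowest at -0.57, and none passed the adjusted threshold.

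The largest complex, eIF3, had 14 genes. Their log2 fold changes were positive for 10 and negative for 4, with a median of 0.13 and a range of -0.41 to 0.31. The median lay 0.26 above the WT mean in mTOR Tg replicate 1 and 0.07 below it in replicate 2. Summed over the 14 genes, the level was 1784 and 1499 normalised CPM in mTOR Tg and 1569 and 1507 CPM in WT. The sum was thus high in replicate 1 of mTOR Tg and just under WT in replicate 2.

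Eif3i, a WD repeat subunit, was at 87.8 and 61.9 normalised CPM in mTOR Tg and 61.4 and 60.5 CPM in WT (log2 fold change 0.30, SE 0.24). Eif3g, an RNA-binding subunit, was at 87.9 and 55.8 CPM in mTOR Tg and 55.5 and 60.3 CPM in WT. Eif3a, which encodes the scaffold of the complex, was at 136 and 205 CPM in mTOR Tg and 203 and 215 CPM in WT (log2 fold change -0.29, SE 0.26). In replicate 1 of mTOR Tg the short transcripts Eif3g and Eif3i were high and the long transcript Eif3a was low, while in replicate 2 all 3 lay near WT. Eif3j2, a close relative of Eif3j1, was at 14.1 and 19.5 CPM in mTOR Tg and 23.8 and 20.7 CPM in WT, and reads of the pair may be shared.

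The 6 genes of eIF2, which carries the initiator tRNA, and of its alternative factors had 3 positive and 3 negative log2 fold changes. Eif2s1, the alpha subunit that the eIF2 kinases phosphorylate, was at 38.7 and 35.6 normalised CPM in mTOR Tg and 34.4 and 37.3 CPM in WT (log2 fold change 0.05, SE 0.19, and -0.02 with scaling to library size only). Eif2s2, the beta subunit, was at 76.8 and 60.7 CPM in mTOR Tg and 61.4 and 58.7 CPM in WT. Eif2d, encoding an alternative initiator tRNA factor, was at 44.7 and 41.1 CPM in mTOR Tg and 39.9 and 36.3 CPM in WT. Eif2a, another alternative factor distinct from the alpha subunit, was at 21.7 and 29.4 CPM in mTOR Tg and 34.1 and 29.2 CPM in WT. Of these, only Eif2d had both mTOR Tg libraries above both WT libraries, by less than its standard error (log2 fold change 0.17, SE 0.19).

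The gamma subunit of eIF2 comes from an X-linked and a Y-linked gene in mice. Eif2s3x was at 72.5 and 96.5 normalised CPM in mTOR Tg and 101 and 102 CPM in WT (log2 fold change -0.26, SE 0.22). Eif2s3y was at 29.4 and 28.1 CPM in mTOR Tg and 31.4 and 35.6 CPM in WT (log2 fold change -0.22, SE 0.20). Both genes were lower in both mTOR Tg libraries than in either WT library, as were 17.0% of all genes tested. Without mTOR Tg replicate 1 the log2 fold changes were -0.07 for Eif2s3x and -0.25 for Eif2s3y. Eif2s3y made up 28.9% and 22.6% of the counts of the pair in mTOR Tg and 23.7% and 25.9% in WT. The copies are alike in sequence, so part of their reads may be shared.

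Nucleotide exchange on eIF2 is carried out by eIF2B, whose 5 genes had 4 positive and 1 negative log2 fold change and a median of 0.19. In mTOR Tg replicate 1 all 5 were above the WT mean, with a median of 0.35, and in replicate 2 only 2 were, with a median of -0.01. Eif2b2 was at 77.3 and 44.4 normalised CPM in mTOR Tg and 42.9 and 45.5 CPM in WT. Eif2b5, the catalytic subunit, was at 57.1 and 39.7 CPM in mTOR Tg and 45.0 and 40.1 CPM in WT. Eif2b4 was at 32.0 and 26.1 CPM in mTOR Tg and 24.0 and 26.1 CPM in WT, and Eif2b3 at 10.8 and 7.47 CPM in mTOR Tg and 9.004 and 9.75 CPM in WT. Replicate 1 of mTOR Tg held the highest value of the 4 libraries in each of these genes.

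The 4 eIF2 kinase genes all had log2 fold changes below 0, with a median of -0.34, and none passed the threshold. That of Eif2ak1, at -0.01, was 0.02 with upper-quartile scaling and 0.16 with the length offset. Eif2ak4 encodes GCN2, the sensor of uncharged tRNA, and was at 18.3 and 34.0 normalised CPM in mTOR Tg and 36.7 and 41.0 CPM in WT (log2 fold change -0.57, SE 0.33, edgeR adjusted p = 0.860). Both mTOR Tg libraries lay below both WT libraries, as in 17.0% of all genes tested. Eif2ak2, which encodes the double-stranded RNA sensor PKR, was at 10.2 and 20.8 CPM in mTOR Tg and 22.6 and 19.4 CPM in WT. Eif2ak3, for the endoplasmic reticulum kinase PERK, was at 24.2 and 40.7 CPM in mTOR Tg and 36.1 and 40.5 CPM in WT. Eif2ak1, for the heme-regulated kinase HRI, was at 45.3 and 41.5 CPM in mTOR Tg and 45.6 and 41.8 CPM in WT.

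Replicate 1 of mTOR Tg was therefore low in Eif2ak4, Eif2ak2 and Eif2ak3, while in replicate 2 the last 2 lay near WT. The median of the kinase genes against the WT mean was -0.85 in replicate 1 and -0.04 in replicate 2. Without mTOR Tg replicate 1 the log2 fold change of Eif2ak4 was -0.19 (adjusted p = 0.718), against -1.09 with mTOR Tg replicate 2 left out instead (adjusted p = 7.35e-06).

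**Figure D4:**
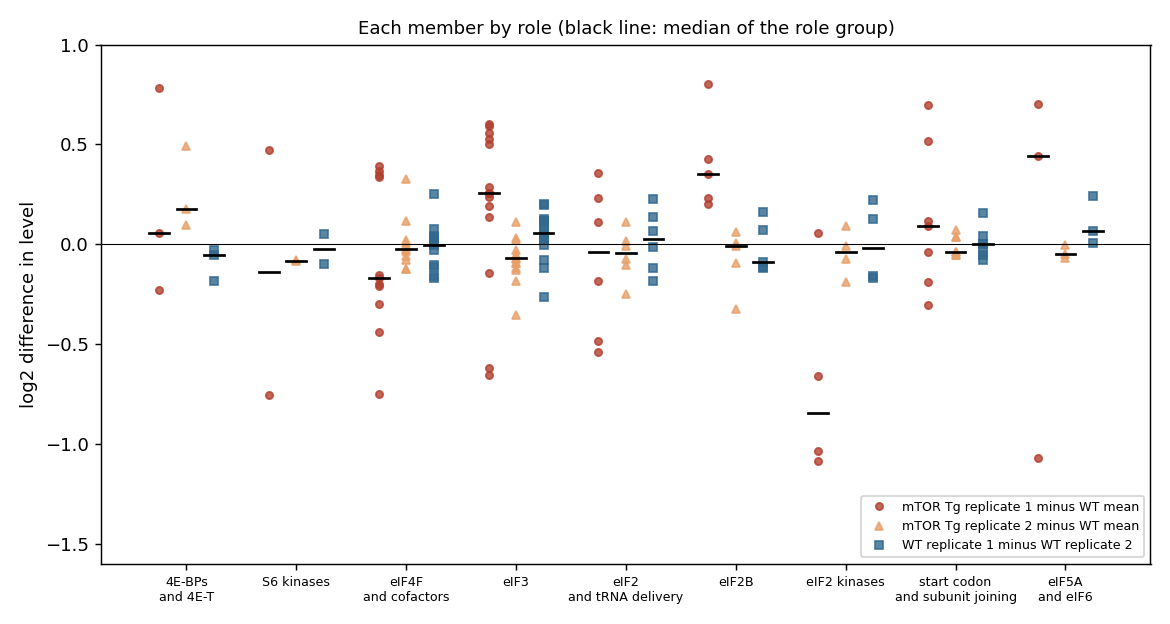
Log2 difference in level (y axis) of each member by role, for mTOR Tg replicates 1 and 2 against the mean of the WT libraries and for WT replicate 1 against WT replicate 2, with black lines at medians. Of the 55 members, 19 lie over 0.5 from 0 in mTOR Tg replicate 1, and the values of mTOR Tg replicate 2 and of the WT pair stay within 0.5 of 0.

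Factors of start codon recognition and subunit joining were near WT in replicate 2. Eif1, whose product scans for the start codon, was the most abundant member per kilobase in both genotypes, averaging 365 CPM in mTOR Tg and 273 CPM in WT. Its level was 585 and 379 normalised CPM in mTOR Tg and 366 and 355 CPM in WT, with no overlap (log2 fold change 0.42, SE 0.27). The value in replicate 2 exceeded the higher WT library by little, and without mTOR Tg replicate 1 the log2 fold change was 0.07. Eif1b, a close relative of Eif1, was at 36.3 and 24.6 CPM in mTOR Tg and 25.3 and 25.3 CPM in WT. Eif5, the activator of GTP hydrolysis by eIF2, was at 131 and 165 CPM in mTOR Tg and 162 and 161 CPM in WT. Eif1a was at 55.2 and 61.1 CPM in mTOR Tg and 62.1 and 63.6 CPM in WT, with a log2 fold change of -0.11 (SE 0.19).

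Eif5a, the hypusine-bearing factor that helps ribosomes over difficult stretches, was at 375 and 267 normalised CPM in mTOR Tg and 277 and 276 CPM in WT. Its relative Eif5a2, the least abundant member per kilobase, was at 3.34 and 7.09 CPM in mTOR Tg and 7.74 and 6.52 CPM in WT. Eif6, which keeps the ribosomal subunits apart, was at 90.0 and 52.6 CPM in mTOR Tg and 56.5 and 53.9 CPM in WT. In all 3 genes mTOR Tg replicate 1 was the library away from the rest, upward in Eif5a and Eif6 and downward in Eif5a2, and the groups overlapped.

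The mTOR Tg libraries differed from each other in some members and were close in others, such as Eif4h and Eif4e. In replicate 1, 19 of 55 members lay over 0.5 on the log2 scale from the WT mean, where 43.0% of all genes did. In replicate 2, 0 of 55 did, where 10.4% of all genes did. Between the WT replicates 0 of 55 differed by that much, where 8.57% of all genes did. The median of the members was 0.14 above the WT mean in replicate 1 and 0.04 below it in replicate 2.

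Transcript length moved with the values of replicate 1. The 18 members under 2000 nt had a median of 0.47 above the WT mean in mTOR Tg replicate 1, the 24 members of 2000 to 4000 nt one of 0.07, and the 13 members over 4000 nt one of -0.21. In replicate 2 the medians were -0.05, -0.02 and -0.03 in the same order of length. Across the 55 members the correlation of deviation with log2 length was -0.55 in replicate 1 and 0.08 in replicate 2 (Pearson's r). Over the 13226 tested genes with a length it was -0.51 and -0.01. For WT replicate 1 minus WT replicate 2 it was -0.18 across the members and -0.17 over the tested genes. These correlations are across genes measured in the same libraries and are given as descriptions. The part of length in the differences between genotypes beyond the offset values was not tested.

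**Figure D5:**
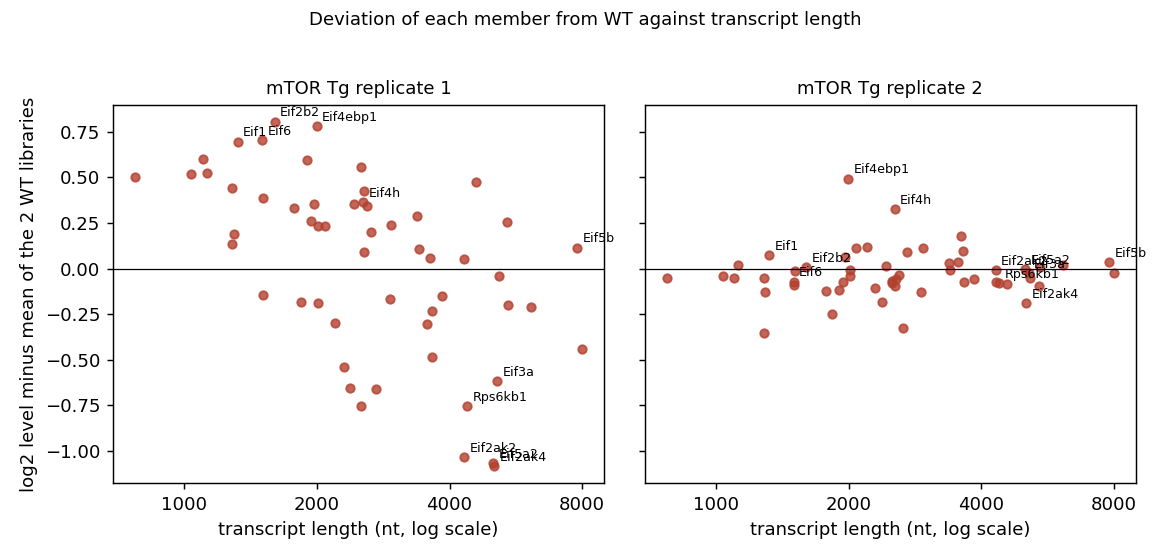
Log2 level of each member minus the mean of the WT libraries (y axis) against transcript length in nucleotides (x axis, log scale), with mTOR Tg replicate 1 at left and replicate 2 at right. Members over 4000 nt lie mostly below 0 and those under 2000 nt mostly above 0 in replicate 1, while replicate 2 lies near 0 at every length apart from a few members such as Eif4ebp1 and Eif4h.

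Other genes of mTOR and initiation control were examined as a list. Of 35 symbols listed, 32 were in the table and all 32 were tested. With all 4 libraries in the fit, edgeR called 0 in either direction. Their log2 fold changes were positive for 15 and negative for 17, with a median of -0.04 and a range of -0.54 to 0.32. The genotypes did not overlap in 8 of the 32, with mTOR Tg higher in 2 (6.25%, against 17.6% of all genes) and lower in 6 (18.8%, against 17.0% of all genes). Mtor itself was at 38.9 and 61.8 normalised CPM in mTOR Tg and 56.8 and 56.7 CPM in WT. It is unknown whether transgene reads fall under Mtor, so its level does not check the labels. Rps6, the substrate of the S6 kinases, was at 763 and 499 CPM in mTOR Tg and 603 and 542 CPM in WT. Pdcd4, an inhibitor of eIF4A, was at 25.6 and 17.0 CPM in mTOR Tg and 20.5 and 24.3 CPM in WT. The helicase gene Ddx3x had the lowest log2 fold change of the list (-0.54, SE 0.31), at 127 and 227 CPM in mTOR Tg and 268 and 246 CPM in WT.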

How the data were processed

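RNA of type II cells from 2 mTOR Tg and 2 WT samples was sequenced. The authors deposited raw read counts, without normalization, by gene symbol. The submitters' processing notes name HISAT2, edgeR and mm10. Counter, annotation and strand setting were not given in the sources used here.

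filterByExpr (minimum count 10) left 13306 genes. The main test was edgeR 4.0.16 (R 4.3.3) by quasi-likelihood with TMM scaling and a genotype term, with Benjamini-Hochberg adjustment over all genes tested and a threshold of 0.05. Standard errors were derived from the fold change and its F statistic, and per-library log2 levels used a prior count of 2. Transcript lengths were medians over CCDS-tagged transcripts of GENCODE M21 (GRCm38), or else the longest transcript, preferably protein-coding. The code was tested on simulated counts.

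The members, gene lists, role groups and tests were chosen with earlier results of these data known. Values per library were given for the 4E-BP, S6 kinase, eIF4F and eIF2 kinase genes, Eif2s1, Eif2b5, Eif2s3x, Eif2s3y, Eif5a, Eif6, and the 2 members of each role with the smallest p in each direction. Of the other pathway genes, those given with values were chosen after their values were seen.

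Alternatives were DESeq2 size factors, library size alone, upper-quartile scaling, no filter, a minimum count of 50, limma-voom (limma 3.58.1), DESeq2 1.42.0, robust dispersion, a replicate block, each library left out, and a transcript length offset.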

Additional observations from a re-analysis of the deposited data

How the results depend on the processing

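No member was called under any alternative except without mTOR Tg replicate 2, where replicate 1 alone stood for the genotype. That fit also called the most genes over the whole table. With each library left out in turn the members called ranged from 0 to 33, the genes called over the whole table from 8 to 6273, and the median log2 fold change of the members from -0.04 to 0.14. The whole table had 0 calls in edgeR, 12 in DESeq2 and 37 with the replicate block. The block called 0 members and changed the direction of none of the 41 members named by rule. The numbers were not taken to pair samples, because the labels do not say that they mark a shared animal, litter or day. Same-numbered libraries had deviations from their group means that correlated at 0.0708. With 2 libraries per group this is a single correlation between the 2 within-group differences, so it cannot exclude pairing. The other scaling factors, filters, limma-voom and robust dispersion gave 0 calls. Of the 41 named members, 16 changed sign without mTOR Tg replicate 1, 2 without mTOR Tg replicate 2 and 7 with the length offset, none of these past the threshold, and the cause was not tested. Eif4ebp1 and Eif4h kept a positive log2 fold change under every alternative, from 0.50 to 0.79 and from 0.28 to 0.37. Other members kept their sign too, such as Eif4ebp2, Eif2d and Eif1 (positive) and Eif4e, Rps6kb1 and Eif2ak4 (negative). All alternatives reused the same libraries. The spread of the mTOR Tg pair, with a biological coefficient of variation of 0.337 against 0.0936 in the WT pair, limits what 2 libraries can show.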

Other observations

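Other Y-linked genes were counted in all 4 libraries along with Eif2s3y, while the labels do not give the sex of the mice. Ddx3y, which encodes an RNA helicase, was at 14.6 and 32.9 CPM in mTOR Tg and 37.6 and 37.5 CPM in WT. The demethylase gene Kdm5d was at 11.3 and 16.2 CPM in mTOR Tg and 19.2 and 20.9 CPM in WT, and Uty was at 3.87 and 12.04 CPM in mTOR Tg and 14.6 and 14.1 CPM in WT. These are CPM on library totals. All 3 were lower in both mTOR Tg libraries than in either WT library, as were 17.0% of all genes tested.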
